A study of Mus musculus with 6 samples.

Results

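The genes described here are 10 genes of the inflammasome, pyroptosis and necroptosis pathways: Nlrp3, Aim2, Pycard, Casp1, Casp4, Gsdmd, Casp8, Ripk1, Ripk3 and Mlkl. They were taken by symbol from a deposited table of raw counts for 55487 genes, and all 10 were found in it. Lung fibroblasts in primary culture, from C57BL/6 mice of wild-type genotype, were held in 0.1% serum for 24 h. For the next 24 h they received PBS (3 libraries) or rmCIRBP, the recombinant mouse form of CIRBP, at 1 µg/mL (3 libraries). CIRBP, cold-inducible RNA-binding protein, is a cold-shock protein that cells can release, and the study's title concerns its action on lung fibroblasts through TLR2, TLR4 and IL-6. Both groups share the genotype, the serum starvation and 1 sequencing batch. Whether each replicate was its own animal or culture is not in the labels, and the spread behind each p-value is that of these 6 samples and could be technical.

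Inflammasomes are cytosolic complexes in which a sensor such as NLRP3 or AIM2 recruits the adaptor ASC (Pycard) and activates caspase-1, which matures IL-1β and IL-18. Caspase-1, and the LPS-binding caspase-11 that mouse Casp4 encodes, cut gasdermin D, whose released part forms pores in the cell membrane and brings about pyroptosis. Necroptosis runs from the kinases RIPK1 and RIPK3 to the pore-forming pseudokinase MLKL, and caspase-8 holds it in check by cutting those kinases. Most of these pathways are regulated by assembly and cleavage of proteins, which RNA counts do not measure.

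The libraries held 12105584 to 14262375 counts. Levels are given as CPM, counts per 1000000 counts of the library, and a gene at 0 could be as high as 3 counts, or 0.210 to 0.248 CPM, by counting error alone. The 9 fibroblast markers summed to 27000 to 31500 CPM in PBS and 21100 to 27900 CPM in rmCIRBP, with Col1a1 and Col1a2 the most abundant. They were not all high: Col1a1 averaged 10660 CPM in PBS and 8791 CPM in rmCIRBP, and Lum 1.54 and 1.57 CPM. In the test given next, Dcn was called higher, Thy1 and Vim were called lower, and 6 were not called. Of 15801 genes tested, edgeR's quasi-likelihood test called 1065 higher and 753 lower after rmCIRBP at a Benjamini-Hochberg adjusted p of 0.05, a split that upper quartile scaling turned to 925 and 1022. The number of calls fell to 723 without PBS 2, 863 without PBS 3 and 742 without rmCIRBP 1. The 6 smooth muscle markers summed to 2540 to 5130 CPM in PBS and 1880 to 9790 CPM in rmCIRBP, and PBS 1 and rmCIRBP 2 were the highest of their groups.

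After rmCIRBP the caspase-11 gene, the NLRP3 gene, the caspase-1 gene, the gasdermin D gene and the MLKL gene rose, and no member fell. Of the 10 genes, 9 passed the filter on low counts and 5 of these were called higher, or 55.6%, where 6.74% of all genes tested were called higher. The count of 0 called lower by edgeR was also 0 at an unadjusted p of 0.05 and with DESeq2 and limma voom. The median log2 fold change of the 9 was 0.91, beside -0.01 over all genes tested. In 8 of the 9 the groups did not overlap, with rmCIRBP higher, which held for 16% of all genes tested (34.8% did not overlap in either direction). The members were chosen with earlier results of these data known, so these shares describe the members and are no test of the set. Casp8, Ripk1, Ripk3 and Pycard did not pass, and Aim2 was too low to be tested.

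Casp4 and Nlrp3, the members with the largest fold changes, were the only ones of the 9 searched with a match to the NF-kB consensus. Gsdmd, also called higher, had no sequence to search, and those of Casp1 and Mlkl, called higher as well, held no match. The sequences before the start sites of Casp4, Nlrp3 and Casp1, which lies next to Casp4, are shown, a choice made after these values were seen. Each is the 250 bases before the RefSeq start on the gene's strand (GRCm38.p6), for Casp4 at chr9:5308599-5308848 (+), for Nlrp3 at chr11:59541319-59541568 (+) and for Casp1 at chr9:5298267-5298516 (+), with the NF-kB matches in capitals.
Casp4: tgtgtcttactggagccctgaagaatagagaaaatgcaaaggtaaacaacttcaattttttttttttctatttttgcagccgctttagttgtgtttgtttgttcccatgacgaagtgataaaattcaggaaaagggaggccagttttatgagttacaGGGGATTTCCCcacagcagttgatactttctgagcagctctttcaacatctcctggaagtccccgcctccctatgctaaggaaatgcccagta
Nlrp3: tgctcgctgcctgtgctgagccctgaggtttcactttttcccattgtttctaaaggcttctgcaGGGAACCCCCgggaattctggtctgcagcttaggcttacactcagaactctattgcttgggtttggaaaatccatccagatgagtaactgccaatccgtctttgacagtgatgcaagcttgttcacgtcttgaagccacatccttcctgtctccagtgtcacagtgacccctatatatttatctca
Casp1: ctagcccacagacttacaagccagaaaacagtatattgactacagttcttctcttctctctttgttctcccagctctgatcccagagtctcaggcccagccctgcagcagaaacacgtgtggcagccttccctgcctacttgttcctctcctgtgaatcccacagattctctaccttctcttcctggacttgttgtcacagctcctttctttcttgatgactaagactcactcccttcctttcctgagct

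In the Casp4 window the capitals are 2 overlapping matches of the NF-kB consensus that end 83 bases before the start. In the Nlrp3 window the match lies on the other strand, 177 to 186 bases before the start. The second annotated start of Nlrp3 had no match in its window. Start sites were found for 9 of the 10 members, 12 sites in all, and Gsdmd was not among them. On both strands these windows were also searched for the tandem motif of interferon regulatory factors (the ISRE core), for the STAT site GAS (TTCNNNGAA) and for AP-1 (TGANTCA). Only the second start of Ripk1 held any of these, 2 GAS matches. Of 32851 mouse windows of this length, 3.9% held the NF-kB consensus, 2.98% the tandem motif, 7.02% GAS and 6.75% AP-1. A match describes the letters of the window and shows no binding.

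**Figure D1:**
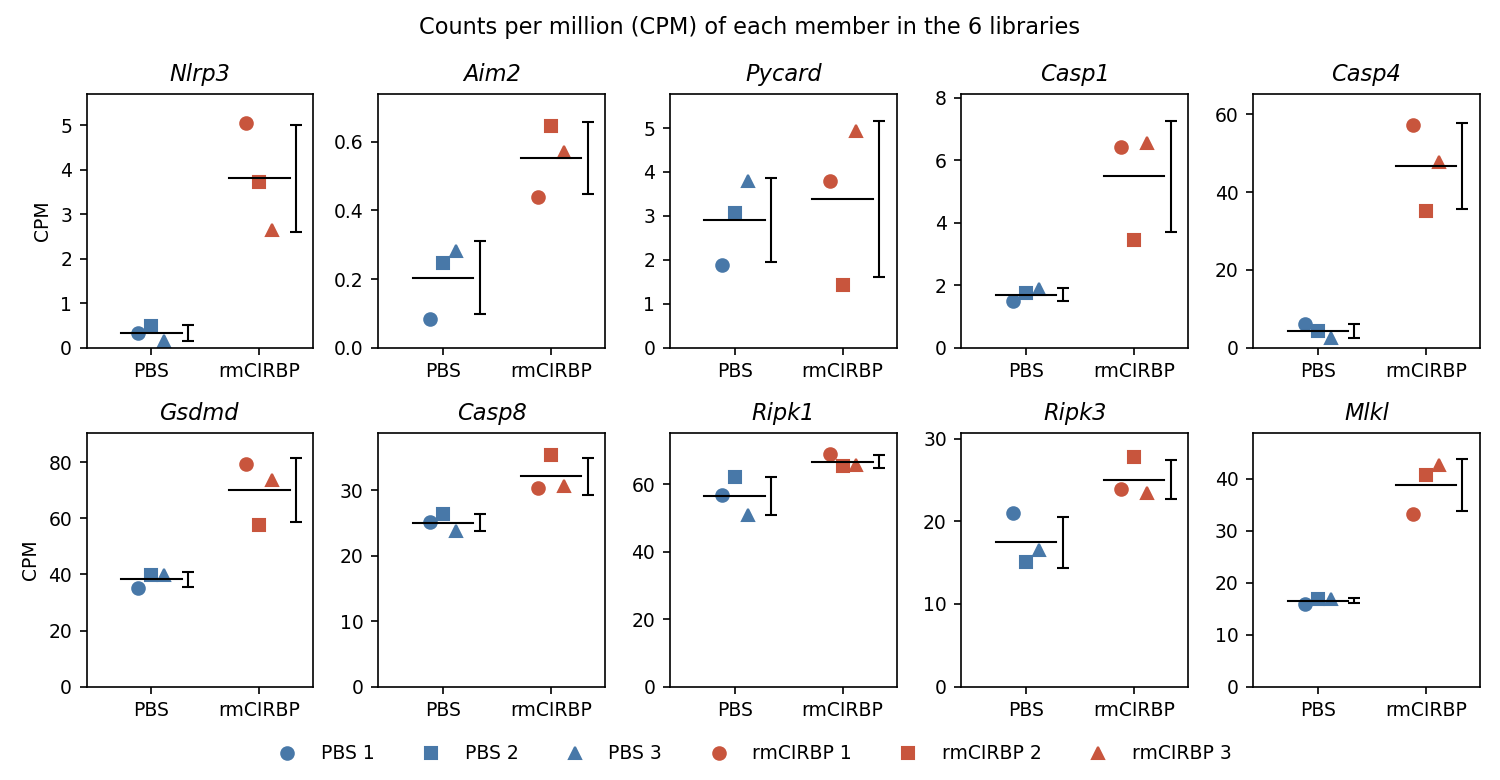
CPM of the 10 genes (y axis, linear, from 0) in the PBS (blue) and rmCIRBP (red) libraries, with the symbol giving the library number, a line at the mean and a bar of 1 SD over 3 libraries. The groups are apart in every panel except that of Pycard, where rmCIRBP 2 at 1.44 CPM lies below all PBS libraries.

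Among the sensors, Nlrp3 (chromosome 11, 59541568 to 59566956, GRCm38), which responds to membrane damage and potassium loss, had 4, 6 and 2 counts in PBS 1, 2 and 3 and 69, 52 and 37 in rmCIRBP 1, 2 and 3. These are 0.329, 0.496 and 0.140 CPM against 5.05, 3.73 and 2.64 CPM. All rmCIRBP libraries were far above all PBS libraries, and rmCIRBP 3 was the lowest of them. On the log2 scale Nlrp3 rose by 3.59 ± 0.48 (SE), with an edgeR adjusted p of 0.0035, and over the 6 fits that each left out 1 library it was 3.20 to 4.04, called each time. With 12 PBS counts in all, the fold is known only roughly: the pooled counts gave a ratio of 12.2 with a 95% exact interval of 6.79 to 24.1 for counting error alone.

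Aim2, the sensor of double-stranded DNA in the cytosol (chromosome 1, 173350879 to 173466040), was near the limit of detection. It had 1, 3 and 4 counts in PBS and 6, 9 and 8 in rmCIRBP, or 0.0822 to 0.281 and 0.439 to 0.646 CPM. The groups did not overlap, and the pooled ratio was 2.66 with a 95% exact interval of 1.15 to 6.89 for counting error. Tested without a filter on low counts it was not called (log2 fold change 1.44 ± 0.81, SE; edgeR adjusted p = 0.361).

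Pycard, the adaptor that joins sensors to caspase-1 (chromosome 7, 127989708 to 127993867), showed no detectable difference. It was at 1.89, 3.06 and 3.79 CPM in PBS and at 3.80, 1.44 and 4.93 CPM in rmCIRBP. The groups overlapped, with rmCIRBP 2 the lowest and rmCIRBP 3 the highest of the 6 libraries. Its log2 fold change was 0.25 with a 95% interval from -0.81 to 1.32 (edgeR adjusted p = 0.758), which runs from 0.569-fold to 2.5-fold. The direction turned without rmCIRBP 3 (-0.13). Of its 3.8 kb of merged exons, Pycard shares 485 bases with Gm45205 on the other strand. Since no strand setting is given in the sources used here, reads of the shared bases cannot be told apart.

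Of the inflammatory caspases, Casp4 (chromosome 9, 5308828 to 5336783) had the smallest p of the members. It was at 6.08, 4.21 and 2.59 CPM in PBS and at 57.2, 35.2 and 47.8 CPM in rmCIRBP. The groups lay far apart, with PBS 1 the highest of PBS and rmCIRBP 2 the lowest of rmCIRBP. On the log2 scale Casp4 rose by 3.48 ± 0.32 (SE), with an edgeR adjusted p of 0.000673, an 11.2-fold difference with a 95% interval of 6.7 to 18.6, and it was called in all 6 fits without 1 library.

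Casp1 (chromosome 9, 5298508 to 5307290) rose from 1.48, 1.74 and 1.89 CPM to 6.43, 3.45 and 6.57 CPM. The groups did not overlap, and rmCIRBP 2 was the lowest of its group. On the log2 scale the rise was 1.71 ± 0.32 (SE), with an edgeR adjusted p of 0.015. Its call ended without PBS 2 (edgeR adjusted p = 0.0646), PBS 3 (0.053) or rmCIRBP 1 (0.0646), at log2 fold changes of 1.60 to 1.79.

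Casp1, Casp4 and Casp12 follow each other on the plus strand of chromosome 9, with 1537 bases between the first pair and 8646 between the second. Casp12, a caspase named here for its position, was at 69.7 ± 4.06 CPM in PBS and 80.4 ± 27.7 CPM in rmCIRBP (SD, n = 3 each) and was not called (log2 fold change 0.24 ± 0.24, SE; edgeR adjusted p = 0.542). Casp4 RNA per kb of merged exons was 1.06 ± 0.558 times that of Casp1 in PBS and 3.55 ± 0.596 times in rmCIRBP (SD, n = 3 each). The ratio was 0.553 to 1.66 in PBS and 2.93 to 4.12 in rmCIRBP (two-sided exact permutation p = 0.1, the smallest that 3 against 3 allows; 0.25 adjusted over 5 ratios). Its size depends on the length used for Casp4. Per kb of principal transcript, a length chosen after the data were seen, Casp4 was at 2.99 ± 1.22 and Casp1 at 1.14 ± 0.14 in PBS. These ranges did not overlap, and in rmCIRBP the levels were 32.6 ± 7.69 and 3.66 ± 1.18. The caspase genes of this cluster are related in sequence, and how the counting treated reads that match several genes is not given in the sources used here.

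Gsdmd, the pore-forming substrate of both caspases (chromosome 15, 75862327 to 75867408), was already abundant in PBS. It was at 35.2, 39.7 and 39.8 CPM in PBS and at 79.4, 57.5 and 73.7 CPM in rmCIRBP. The groups did not overlap, and rmCIRBP 2 was again the lowest of its group. Gsdmd rose by 0.91 ± 0.14 on the log2 scale (SE, edgeR adjusted p = 0.00617), a 1.88-fold rise with a 95% interval of 1.51 to 2.34, and it was called in all 6 fits without 1 library.

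At the end of the necroptosis pathway, Mlkl (chromosome 8, 111311797 to 111338177) rose from 15.9, 16.9 and 16.8 CPM to 33.1, 40.7 and 42.7 CPM. The PBS libraries lay close together, far below the rmCIRBP libraries, of which rmCIRBP 1 was the lowest. Its edgeR adjusted p was 0.00129 at a log2 fold change of 1.26 ± 0.13 (SE), which was 1.18 to 1.38 over the 6 fits without 1 library, called each time.

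The kinases and the caspase upstream of Mlkl did not pass the test. Ripk3, which phosphorylates MLKL (chromosome 14, 55784995 to 55788865), was at 21.0, 15.0 and 16.5 CPM in PBS and at 23.9, 27.8 and 23.4 CPM in rmCIRBP. Its groups did not overlap, though PBS 1 came close to the rmCIRBP libraries. Ripk3 had a log2 fold change of 0.55 with a 95% interval of 0.17 to 0.93 (edgeR adjusted p = 0.071). It was called higher by DESeq2 (adjusted p = 0.0381), by edgeR without a filter on low counts (0.0419) and by edgeR without PBS 1 (0.0248).

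Ripk1, the kinase and scaffold that carries the TNF receptor's signal to survival or death (chromosome 13, 34002363 to 34037147), was at 56.7, 62.1 and 50.8 CPM in PBS and at 68.8, 65.3 and 65.6 CPM in rmCIRBP. The groups did not overlap, and PBS 2 came close to the rmCIRBP libraries. Its log2 fold change of 0.27 had a 95% interval of 0.02 to 0.52 (edgeR adjusted p = 0.149). Ripk1 shares 241 exon bases with Serpinb6a on the other strand and 511 with the pseudogene Gm17084 on its own. How reads of these bases were counted is not given in the sources used here. The counts of Ripk1 may include reads of both genes or lack reads of its own.

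Casp8, the protease that starts apoptosis and blocks necroptosis (chromosome 1, 58795374 to 58847503), was at 25.1, 26.4 and 23.7 CPM in PBS and at 30.3, 35.3 and 30.6 CPM in rmCIRBP. The groups did not overlap, with rmCIRBP 2 the highest. Casp8 had a log2 fold change of 0.39 with a 95% interval of 0.12 to 0.66 (edgeR adjusted p = 0.0695). For Casp8, Ripk1 and Ripk3 the intervals before adjustment lie above 0 but end below a doubling.

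The balance of Mlkl to its kinase Ripk3 was higher in each rmCIRBP library than in any PBS library. Per kb of merged exons, Mlkl was at 0.966 ± 0.188 times Ripk3 in PBS and at 1.55 ± 0.229 times in rmCIRBP, with ranges of 0.757 to 1.12 and 1.38 to 1.81 (SD, n = 3 each; two-sided exact permutation p = 0.1; 0.25 adjusted over 5 ratios). Ripk3 was at 1.14 ± 0.237 times Ripk1 in PBS and 1.37 ± 0.154 times in rmCIRBP, with ranges that overlapped (exact permutation p = 0.3; 0.375 adjusted). Cflar, the caspase-8 relative that restrains caspase-8 and lies 36489 bases before it, was at 1.64 ± 0.216 and 1.62 ± 0.263 times Casp8 (exact permutation p = 0.8; 0.8 adjusted).

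**Figure D2:**
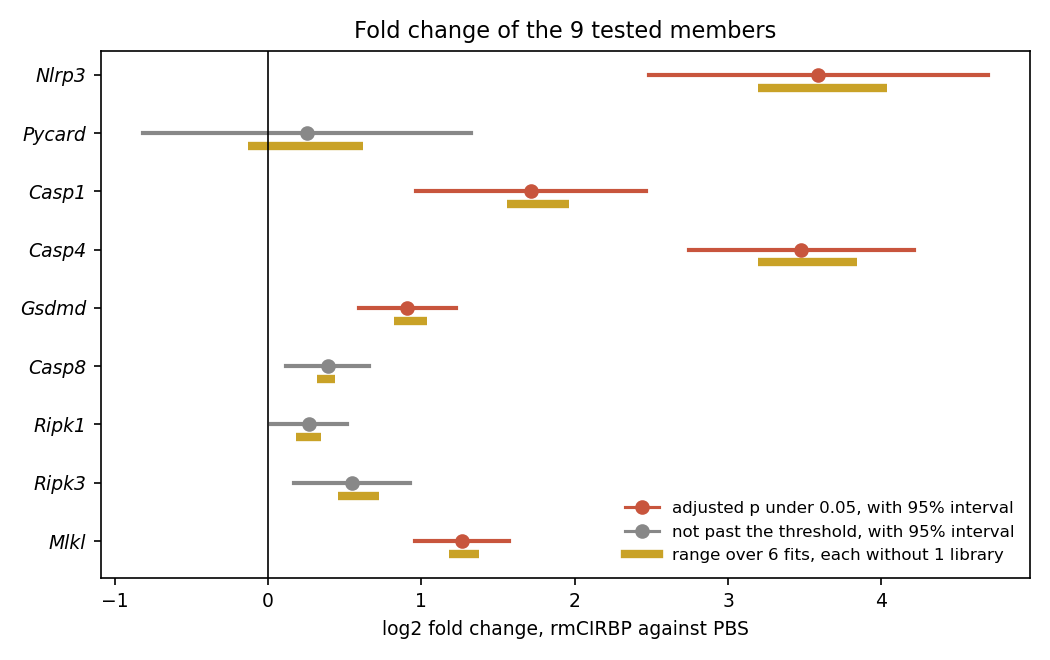
Log2 fold change of the 9 tested genes, rmCIRBP against PBS (x axis), with 95% intervals before adjustment (thin lines; red where the adjusted p was under 0.05) and the range over 6 fits that each left out 1 library (thick bars). Nlrp3 at 3.59 and Casp4 at 3.48 lie apart from the rest, and the bar of Pycard crosses 0.

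Levels compared between genes, in CPM per kb of merged exons, set Gsdmd highest in PBS at 16.1 ± 1.10 (SD, n = 3). Casp8 (8.65 ± 0.459), Ripk3 (7.63 ± 1.35), Mlkl (7.18 ± 0.226) and Ripk1 (6.78 ± 0.677) followed, and each of these overlapped its neighbour in the order. Casp4 (1.16 ± 0.470), Casp1 (1.14 ± 0.140) and Pycard (0.766 ± 0.252) were lower and overlapped likewise, and Nlrp3 (0.0792 ± 0.0438) and Aim2 (0.0581 ± 0.0304) were lowest and overlapped. The PBS cells held RNA of the executioners and the necroptosis kinases and little of the sensors and the adaptor.

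In rmCIRBP the order began with Gsdmd (29.5 ± 4.78) and Mlkl (16.9 ± 2.19), followed by Casp4 (12.6 ± 2.97), which had moved from the sixth to the third place. Casp4 overlapped Mlkl above it and Casp8 (11.1 ± 0.976) below it. Casp1 (3.66 ± 1.18) stayed below Ripk3 (10.9 ± 1.04) and Ripk1 (7.98 ± 0.232), and Nlrp3 (0.938 ± 0.296) reached the level of Pycard (0.892 ± 0.469). Casp4 depends on the length used, since its annotated transcripts include retained introns: per kb of its principal transcript it was at 2.99 ± 1.22 in PBS and 32.6 ± 7.69 in rmCIRBP, the latter overlapping Gsdmd at 39.2 ± 6.33 on the same scale. By the length of the principal transcript, the PBS ranges of Casp4 (1.81 to 4.24) and Casp1 (0.988 to 1.26) did not overlap. That length was chosen after the data were seen.

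**Figure D3:**
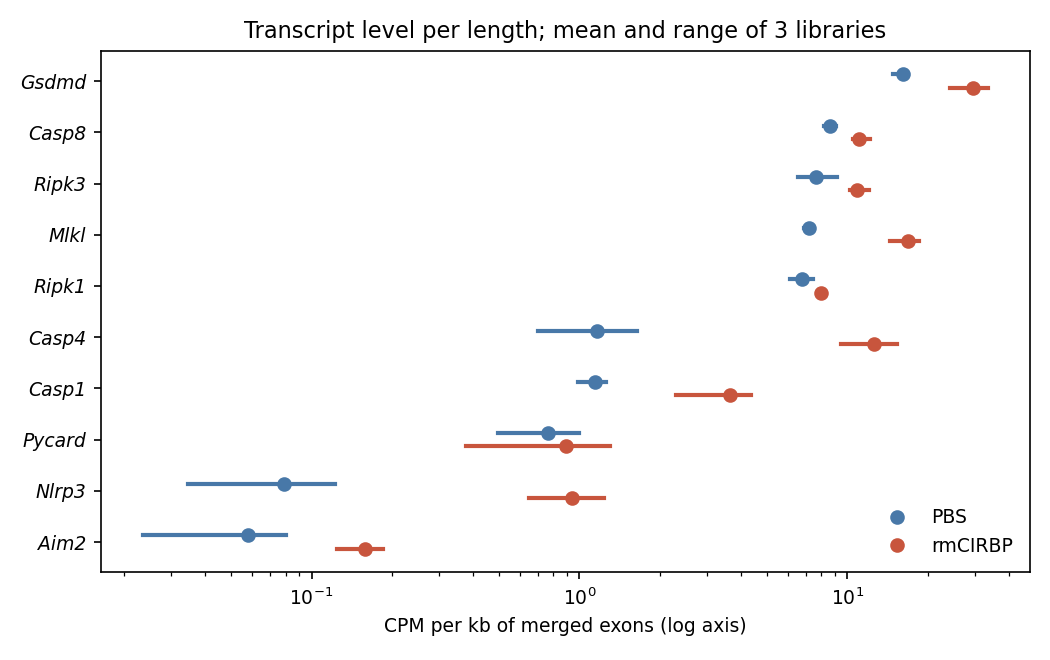
Level of each gene in CPM per kb of merged exons (x axis, log scale), PBS in blue and rmCIRBP in red, as the mean (point) and range (line) of 3 libraries. Gsdmd is highest in both groups and Aim2 lowest, and the mean of Casp4 passes those of Casp8, Ripk3 and Ripk1 in rmCIRBP.

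The rmCIRBP libraries did not rank alike across the members. In rmCIRBP 2, Casp1, Casp4, Gsdmd, Pycard and Ripk1 were the lowest of the group, at deviations from the group's mean log2 CPM of -0.60, -0.39, -0.28, -1.01 and -0.04. Casp8, Ripk3 and Aim2 were the highest of the group in that library, at 0.13, 0.15 and 0.19. rmCIRBP 2 was also the library with the highest smooth muscle markers (9790 CPM summed), whose part in these differences was not tested. Without PBS 1 and rmCIRBP 2, an alternative chosen after the data were seen, 6 members were called higher, the 5 named above and Ripk3 (edgeR adjusted p = 0.0205). Calls rose in general in that fit, with 1669 genes called higher, beside 1065 with all 6 libraries.

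Macrophages express inflammasome genes, and their markers moved both ways. Of 18 listed, 15 were tested, and Adgre1, Marco and Siglecf were called higher while C1qa, C1qb and Mrc1 were called lower. Their median log2 fold change was -0.41, and the summed level was 135 to 183 CPM in PBS and 82.3 to 159 CPM in rmCIRBP. Lyz2, lysozyme, made up most of it at 110 ± 17.3 CPM in PBS and 73.6 ± 26.3 CPM in rmCIRBP (SD, n = 3 each), and Csf1r, the next, was at 9.94 ± 1.69 and 13.1 ± 1.41 CPM. No marker of the list was at 0 in every library, and Ptprc, the pan-leukocyte CD45, was at 1.25 ± 0.788 and 2.64 ± 1.39 CPM. The part of such cells in the results above was not tested.

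Of 8 neutrophil markers, 5 (S100a9, Ly6g, Cxcr2, Elane and Retnlg) were at 0 in every library, and the summed level was 0 to 0.246 CPM in PBS and 1.21 to 1.68 CPM in rmCIRBP. The sums were 0.359 to 1.32 CPM for lymphocyte markers (Cd3e at 0) and 0.0714 to 0.585 CPM for epithelial markers (Nkx2-1 and Cldn18 at 0) over all libraries. For 7 endothelial markers (Emcn and Cldn5 at 0) they were 19.2 to 27.4 CPM in PBS and 5.89 to 8.19 CPM in rmCIRBP, mostly of Kdr and Tek. Pecam1 and Cdh5, named after their values were seen, had 0 to 5 counts in each library of both groups. In RNA of whole cultures, fewer cells of a type and less RNA per cell cannot be told apart.

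The other genes of these pathways were followed in 7 lists of 85 symbols, of which 83 were in the table and 62 were tested. Of the 62, 25 were called higher (40.3%, beside 6.74% of all genes tested) and 1 lower (4.77% of all genes tested), with a median log2 fold change of 0.44. The lists were chosen with earlier results of these data known, so these shares describe the lists and are no test of the pathways.

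Of 14 sensors other than Nlrp3 and Aim2, 10 were too low to test, among them Nlrc4 (4, 1 and 8 counts in PBS and 9, 8 and 10 in rmCIRBP), and Nlrp9b was at 0 in every library. Of the 4 tested, Nod1, a peptidoglycan sensor that signals to NF-kB and forms no inflammasome, rose from 51.9 ± 4.00 to 195 ± 74.2 CPM (log2 fold change 1.94 ± 0.28, SE; edgeR adjusted p = 0.00524). Naip2 (log2 fold change 0.67; edgeR adjusted p = 0.201) and Naip5 (0.10; 0.886), which bind bacterial secretion proteins and flagellin, did not pass. Nod2, the relative of Nod1, chosen after its values were seen, had 0 counts in PBS and 8, 11 and 5 in rmCIRBP. With PBS set at 3 counts over the group, the rmCIRBP counts were 7.41-fold higher. That value leaves out their own counting error and is no lower bound.

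Of 12 triggers and regulators of inflammasomes, 6 rose and 1 fell. Among the 6, Irgm1 lost its call without PBS 2, and Irf2 without PBS 2, PBS 3, rmCIRBP 1 or rmCIRBP 3, both named after their values were seen. Gbp5 and Gbp2, guanylate-binding proteins that open pathogen vacuoles and help caspase-11 reach LPS, rose by log2 fold changes of 6.42 ± 0.31 and 3.35 ± 0.18 (SE; edgeR adjusted p = 3.43e-05 and 5.15e-05). Their values are uncertain within a family of shared sequence. Irf1, a transcription factor of interferon responses, rose from 29.6 ± 4.69 to 106 ± 12.8 CPM. The gene that fell, named after its values were seen, was Txnip, a thioredoxin-binding protein that can bind NLRP3. It was at 130, 207 and 270 CPM in PBS and at 96.9, 76.1 and 117 CPM in rmCIRBP, and its call (edgeR adjusted p = 0.0432) ended without PBS 2, PBS 3, rmCIRBP 1 or rmCIRBP 2, reaching at most 0.137.

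Of 12 pore and membrane rupture genes, 4 were tested and Ninj1 alone rose. Ninj1, the protein that ruptures the membrane after gasdermin pores form, went from 20.8, 19.1 and 20.8 CPM to 43.6, 53.4 and 40.4 CPM (log2 fold change 1.21 ± 0.13, SE; edgeR adjusted p = 0.0015), and was called in all 6 fits without 1 library. Gsdme, the gasdermin cut by caspase-3, was at 6.11 ± 1.03 and 5.86 ± 0.711 CPM (edgeR adjusted p = 0.947), and Chmp4b, of the machinery that repairs such pores, had a log2 fold change of 0.29 (edgeR adjusted p = 0.111). The 7 other gasdermin genes of the list had 0 to 4 counts in each library.

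Of 10 genes of the IL-1 family's cytokines, antagonists and receptors, 7 were tested and 5 rose. Il1b, whose product caspase-1 matures, had 0, 0 and 3 counts in PBS and 30, 97 and 25 in rmCIRBP. The pooled ratio was 46.9 with a 95% exact interval of 15.8 to 230 for counting error (edgeR adjusted p = 0.0121), and the call ended without PBS 2 (0.0607). Its fitted log2 fold change of 5.43 was 4.57 without rmCIRBP 2 and 8.60 without PBS 3, which holds all of the PBS counts, so that the latter value has no PBS count behind it and is no bound. Unlike Casp1, Casp4 and Gsdmd, Il1b was highest in rmCIRBP 2. Il18, the other substrate, had 4, 8 and 8 counts in PBS and 6, 13 and 12 in rmCIRBP and was not tested. Il1a, which caspase-1 does not cut, had a log2 fold change of 3.77 ± 0.64 (4.41 without PBS 3), and Il18bp, the secreted antagonist of IL-18, one of 1.42 ± 0.27 (SE; edgeR adjusted p = 0.00955 and 0.015). Without rmCIRBP 1 and without PBS 2 the call of Il18bp ended. The receptor chains Il1rap (1.32 ± 0.17) and Il1r1 (1.19 ± 0.24) rose as well (edgeR adjusted p = 0.00273 and 0.0186), though Il1r1 lost its call without PBS 3 or rmCIRBP 1.

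Of 21 death receptor and complex genes, 7 rose and none fell (also none lower by edgeR at an unadjusted p of 0.05, by DESeq2 or by limma voom). Tnfaip3 (A20), which edits ubiquitin chains and restrains RIPK1-dependent death, rose from 7.93 ± 0.947 to 197 ± 52.0 CPM (log2 fold change 4.67 ± 0.24, SE; edgeR adjusted p = 4.78e-05). Birc3 (cIAP2), a ubiquitin ligase for RIPK1, rose from 16.2 ± 2.98 to 87.0 ± 2.56 CPM, and Fas, a death receptor, from 31.2 ± 1.42 to 133 ± 21.7 CPM. Those that did not pass included the adaptors Fadd (log2 fold change 0.25; edgeR adjusted p = 0.342) and Tradd (-0.10; 0.686), Tnfrsf1a, the TNF receptor (0.22; 0.363), and Cflar (0.38; 0.125), which were named after their values were seen.

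Of 7 genes that bring RIPK3 into play by other routes, or restrain them, 4 rose. Zbp1, the Z-nucleic acid sensor that binds RIPK3 directly, rose from 14.8, 10.2 and 12.5 CPM to 125, 82.2 and 135 CPM (log2 fold change 3.22 ± 0.23, SE; edgeR adjusted p = 0.000219), with rmCIRBP 2 the lowest of its group. Tlr3, the receptor for double-stranded RNA, rose by 1.84 ± 0.17 (SE; edgeR adjusted p = 0.00063). Adar, an RNA editing enzyme that limits ZBP1 activation, rose by 0.76 and Eif2ak2, the kinase PKR, by 0.75 (edgeR adjusted p = 0.015 and 0.0189). Adar and Eif2ak2 lost their calls without PBS 2 or rmCIRBP 1, and Eif2ak2 also without PBS 3.

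Among the other caspases, Casp9, the caspase of the mitochondrial route, was at 23.8 ± 4.71 and 14.9 ± 2.02 CPM (edgeR adjusted p = 0.0558), and Casp2 at 27.0 ± 1.34 and 20.7 ± 2.51 CPM (0.11). The median log2 fold change of the list was -0.16.

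**Figure D4:**
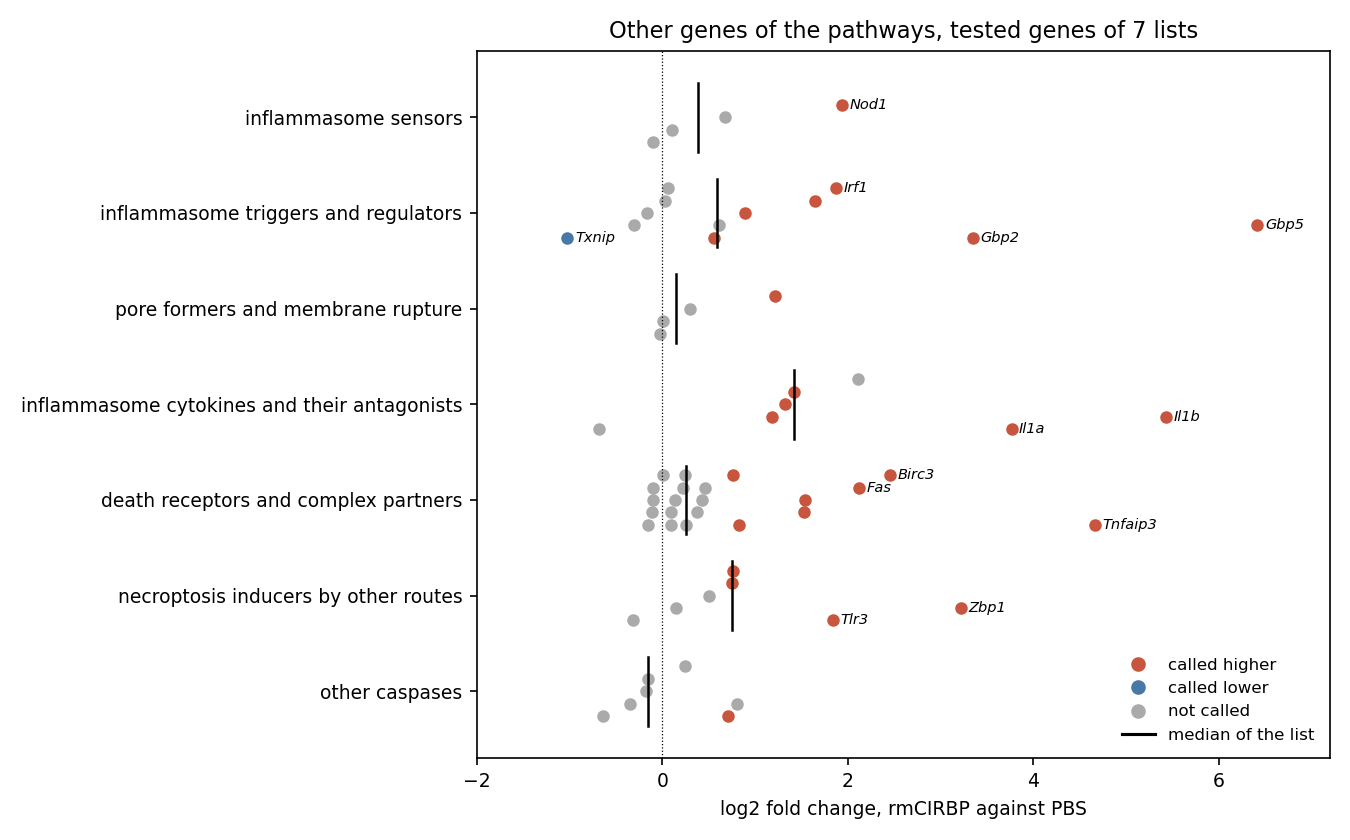
Log2 fold change, rmCIRBP against PBS (x axis), of the tested genes in 7 lists (rows; points offset vertically for legibility), red where called higher, blue where called lower, grey where not called, with a line at each list's median. Gbp5 at 6.42 and Il1b at 5.43 lie farthest to the right, and the median of the other caspases is below 0.

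The genes whose log2 CPM over the 6 libraries was most like that of Casp4, the member with the smallest p, were 1700025G04Rik (Pearson r = 0.998), Kif26b (0.998) and Apln (0.998), among 12501 protein-coding genes with a mean of at least 1 CPM. Such values are common in a comparison of a pair of separated groups: 406 of these genes had an r of at least 0.95, and all share the same libraries.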

How the data were processed

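The data are raw gene counts of 6 libraries in 1 table, as deposited by the authors. Per the labels' protocols, polyA-selected RNA was made into TruSeq mRNA libraries. Per the submitters' processing notes, featureCounts, DESeq2 and R 4.1.2 were used with GRCm38 (mm10). For the aligner, annotation release and strand setting the entry is: not given in the sources used here. Columns were matched to samples by title, with 0 left over. No pair of libraries agreed within sampling noise (smallest chi-square per degree of freedom 14.2).

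Genes were tested with edgeR 4.0.16 under R 4.3.3 (filterByExpr by group, TMM scaling, quasi-likelihood F test, two-sided, no covariate, Benjamini-Hochberg adjustment over 15801 genes at 0.05). Each SE was derived from the F statistic of the gene's fold change, and each 95% interval from that SE. CPM are counts over the library total, given as mean ± SD (n = 3). Exon lengths are from GENCODE M21. The same edgeR, DESeq2 1.42.0 and limma 3.58.1 steps were tested on simulated data. Promoter sequences are RefSeq's (GRCm38.p6).

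The members and lists were chosen with earlier results of these data known. From each pathway list the text names up to 3 genes with the smallest p and every called gene where 5 or fewer were called, and from marker lists the most abundant and those at 0 in every library. Some genes that this rule names are not reported here. Alternatives were other scalings, filters, tests and thresholds, a replicate block, protein-coding genes alone and leaving out each library.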

Additional observations from a re-analysis of the deposited data

How the results depend on the processing

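The count of 5 members called higher was 4 to 6 under every alternative run, and that of 0 called lower was 0 under each. Casp4, Gsdmd, Nlrp3 and Mlkl were called in every one of these fits, whereas Casp1 was not called at an adjusted p threshold of 0.01 or without PBS 2, PBS 3 or rmCIRBP 1. The log2 fold change of Pycard reversed without rmCIRBP 3 (-0.13) and was at most 0.62 with 1 library left out (without rmCIRBP 2). Genes called numbered 1818, but 608 at a threshold of 0.01, 2802 without PBS 1 and rmCIRBP 2 together (chosen after the data were seen) and 723 to 2144 without 1 library each. Without a filter on low counts there were 2607. DESeq2 called 2618, of which 1172 were lower, against 753 in edgeR. Pathway genes called lower numbered 1, but 2 with upper quartile scaling, without a filter, with DESeq2 and without PBS 1 and rmCIRBP 2 together, 0 with edgeR's robust fit and at a threshold of 0.01, and 0 to 2 without 1 library each. The causes were not tested.

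With the replicate number as a block (replicate block), 1258 genes were called, 466 of them lower, 5 members were called higher, and 22 pathway genes were called higher. The labels do not say that the numbers pair samples, so they were not taken to do so. Deviations from the group means of same-numbered libraries correlated at -0.107, -0.169 and 0.246 across genes. The highest correlation, 0.36, was that of PBS 1 and rmCIRBP 2. Deviations within a group of 3 libraries depend on each other, so these values cannot decide whether samples were paired. Depth limits Aim2, Nlrp3, Il1b and the sensors other than Nod1, whose PBS counts were few.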
